A study of Mus musculus with 20 samples.

Results

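Mesothelial genes were examined in white adipose tissue (WAT) of wild type mice fed a high fat diet, WT(HFD), and of mice lacking CD44 on the same diet, CD44KO(HFD). The 10 genes are Msln, Wt1, Upk3b, Upk1b, Bnc1, Krt7, Krt8, Krt18, Krt19 and Gpm6a, out of 28786 gene symbols on the array. They were chosen by their measured values, a lower level in CD44KO(HFD) fat and movement together from mouse to mouse, so both patterns are given below as descriptions. Where the fit across all probes is printed for that contrast, it stands beside its background and nothing is read from it. All mice were C57BL/6 males aged 7 months that had eaten the 35% fat diet for 21 weeks. RNA of liver and of WAT from 5 WT(HFD) and 5 CD44KO(HFD) mice was read with 1 dye (Cy3) on 20 arrays of 41174 probes, 1 array per sample. Per the methods, the CD44-deficient line had been backcrossed onto C57BL/6J, and no group on normal chow was on the arrays. The labels give the fat as WAT without naming the depot. They number the samples of each group, and do not say whether a liver and a fat sample of the same number came from 1 mouse.

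Mesothelium is the sheet of flat cells that covers the abdominal organs and the fat pads attached to them, and it makes the fluid film that lets them slide. It arises from mesoderm, yet it holds keratin filaments as epithelia do, and its marker genes are mostly absent from adipocytes and immune cells. A piece of fat from such a pad can therefore carry mesothelial RNA from its surface, and the labels do not say which depot was taken. In RNA from whole tissue, fewer cells of a type and less RNA per cell cannot be told apart.

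By role, the genes form 4 sets. Msln (mesothelin, a lipid-anchored surface glycoprotein), Upk3b and Upk1b (uroplakins, membrane proteins of surface plaques) and Gpm6a (a membrane glycoprotein of the proteolipid family) are surface proteins. Wt1 and Bnc1 are zinc finger transcription factors, and Wt1 is the classical mark of mesothelium and of the kidney podocyte. Krt7 and Krt8 are type II keratins. Krt18 and Krt19 are type I keratins that pair with them, and Krt8 with Krt18 is also the keratin pair of hepatocytes.

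The probes are shown because the level of a gene rests on the 60 bases its probe reads, and because 3 of the 10 genes were read by more than 1 probe. Each line gives 30 of those bases, with a polyadenylation signal (AATAAA) in capitals where the probe holds one. Positions are those of the files, in build mm7.
Msln, chr17:23931864-23931923, minus strand: ggactcttgaactcAATAAAcagtggcata
Upk3b, chr5:135015932-135015991, plus strand: tcaccaagtgtactggttagagagtgtaaa
Bnc1, chr7:77840380-77840439, minus strand: tgcagctttaaaagaagtggattttgtatt
Krt7, brighter probe, chr15:101413898-101413957, plus strand: gctgttggctttAATAAAgggcctctctga
Krt7, dimmer probe, chr15:101409444-101409503, plus strand: cagcatcgcagaggctgaggaacaagggga
Gpm6a, brighter probe, chr8:53829187-53829246, plus strand: tcgtgtttgttttaaccttgactctctttt
Gpm6a, dimmer probe, chr8:53827889-53827949, plus strand: attggtgtttcattaagggccatccaacca
The brighter of the Krt7 probes holds the signal near which a transcript is cut, as the Msln probe does, and the dimmer one lies upstream of it on the same strand. Each gene is given by its brightest probe over the 20 arrays, and the dimmer probes are set beside it where they differ.

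Promoter sequences were in the RefSeq table (GRCm38.p6) for 6 of the 10 genes, Upk3b, Bnc1, Krt7, Krt8, Krt18 and Gpm6a, and not for Msln, Wt1, Upk1b and Krt19. The 250 bases before the start site are printed for 4 genes that moved together in fat, to show what their promoters share and where they differ. In Upk3b and the first start site of Gpm6a the capitals mark CATTCC, the core of the site bound by TEAD factors. In Bnc1 and Krt7 they mark GGGCGG, the GC box bound by Sp1 family factors. Both strands were read, so that GGAATG and CCGCCC are the same motifs on the other strand.
Upk3b, chr5:136038246-136038495, plus strand: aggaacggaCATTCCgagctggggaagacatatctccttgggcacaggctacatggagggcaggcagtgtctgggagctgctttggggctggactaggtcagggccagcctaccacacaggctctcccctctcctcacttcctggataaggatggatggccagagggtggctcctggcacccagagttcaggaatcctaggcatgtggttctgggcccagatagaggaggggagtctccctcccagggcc
Gpm6a, chr8:54779184-54779433, plus strand: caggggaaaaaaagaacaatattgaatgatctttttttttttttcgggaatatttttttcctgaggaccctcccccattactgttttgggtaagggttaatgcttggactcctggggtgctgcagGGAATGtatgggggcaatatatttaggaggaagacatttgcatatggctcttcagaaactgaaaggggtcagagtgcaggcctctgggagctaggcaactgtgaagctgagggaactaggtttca
Bnc1, chr7:81992300-81992549, minus strand: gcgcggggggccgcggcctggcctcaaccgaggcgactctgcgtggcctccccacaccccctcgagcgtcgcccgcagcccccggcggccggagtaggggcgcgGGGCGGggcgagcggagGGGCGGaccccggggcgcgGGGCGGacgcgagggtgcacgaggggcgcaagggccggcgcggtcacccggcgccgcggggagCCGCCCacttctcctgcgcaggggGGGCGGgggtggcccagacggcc
Krt7, chr15:101412153-101412402, plus strand: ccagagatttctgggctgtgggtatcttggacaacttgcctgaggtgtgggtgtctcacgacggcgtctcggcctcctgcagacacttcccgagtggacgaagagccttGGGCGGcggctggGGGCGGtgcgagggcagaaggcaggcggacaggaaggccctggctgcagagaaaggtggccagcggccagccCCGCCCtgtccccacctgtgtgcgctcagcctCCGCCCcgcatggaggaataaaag
The Bnc1 window held 5 GC boxes and was 83.6% G and C, and that of Krt7 held 4 and was 66% G and C. Neither Upk3b (60.8%) nor the first Gpm6a window (44.4%) held a GC box, and each held 1 CATTCC. Among all 32851 promoter windows of that length, 32.7% held GGGCGG and 12.6% held CATTCC. Of the 7 windows of these genes, 2 held each motif. GCGTGGG, a core of the sites of Wt1 and the Egr factors, was in 4.3% of all windows and in 0 of the 7. TGANTCA, the site of AP-1, was in 6.75% and in 0 of the 7. TATAAA was in 12.4% and in 1 of the 7, the second start site of Gpm6a. No motif of the 5 searched was in all 7 windows.

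Values are log2 processed signals minus the log2 of the array's 75th percentile, so that 0 is the 75th percentile of an array and each step of 1 is a doubling. A level is compared between samples of 1 probe, not between probes. The 75th percentile lay between 1542 and 2798 units of fluorescence on the WAT arrays and between 433.6 and 576.6 on the liver arrays. On 9 WAT arrays 63.2% to 69.5% of the spots passed as well above background, against 89.5% for WT replicate 1, whose dim probes read high. That array correlated with the other WAT arrays at a mean r of 0.834 across probes, and the others at 0.954 to 0.966. The brightest Cd44 probe lay between 3.55 and 4.56 in WT(HFD) fat and between -0.67 and -0.36 in CD44KO(HFD) fat, and in liver between 0.1 and 0.82 against -4.2 and -3.24, so every sample matched its genotype label.

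All 10 genes had a lower mean in CD44KO(HFD) than in WT(HFD) fat. The difference in log2 level ran from -0.49 for Wt1 to -2.76 for Bnc1, with a median of -2.03 over the 10 genes, and the median of all 27654 probes tested was -0.07. The WT level was 1.4-fold that of the knockout for Wt1, and between 3.38-fold (Krt18) and 6.5-fold (Upk3b) for 8 others. For Bnc1 it was 6.76-fold, with 2 of the 5 knockout values at background. Across the WAT table, 55.8% of the probes had a lower mean in CD44KO(HFD) and 2.6% a log2 difference below -1.5. With limma and Benjamini-Hochberg adjustment over all probes tested, 0.0398% of the probes passed an adjusted p of 0.05 (11 of 27654), and 0 of the 10 genes did. Without WT replicate 1 these were 0.0687% and 0 of 10, and the median difference of the 10 genes was -2.06. With arrays weighted by their agreement it was -1.28, and with all 20 arrays in 1 fit 8 of the 10 genes passed, beside 1733 probes. An unadjusted p of 0.05 was passed by 4078 probes and by 9 of the 10 genes. Since that contrast chose the genes, nothing is read from these counts.

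The surface proteins come first. The log2 level of Msln in WT replicates 1 to 5 was 1.45, 2.04, 2.57, 0.39 and 1.75, and in CD44KO replicates 1 to 5 it was -0.6, -0.99, -0.31, -0.59 and 0.97. The means were 1.64 ± 0.81 and -0.3 ± 0.75 (SD, n = 5 each), a 3.85-fold difference. WT replicate 4 was the lowest of its group and CD44KO replicate 5 the highest of its own, and these were the samples in which the groups overlapped.

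Upk3b had the widest difference of the surface proteins. It was at 0.31, 0.73, 1.32, -1.36 and 0.26 in WT(HFD) fat and at -3.09, -3.69, -2.44, -2.18 and -0.84 in CD44KO(HFD) fat. The WT mean of 0.25 ± 0.99 was 6.5-fold above the knockout mean of -2.45 ± 1.07 (SD, n = 5 each). Again CD44KO replicate 5 stood above WT replicate 4, and the other 4 knockout samples stood below every WT sample.

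Upk1b, a tetraspanin that partners uroplakins of the type of Upk3b, was at -0.93, -1.22, -0.96, -3.4 and -1.48 in WT(HFD) fat. In the knockout it was at -4.2, -4.78, -3.65, -3.81 and -2.49. The means differed by -2.19 (4.56-fold), and WT replicate 4 lay apart from the other WT samples. Gpm6a was at -0.63, -0.11, 0.33, -2.02 and -0.03 in WT(HFD) and at -3.54, -3.49, -2.34, -2.38 and -1.03 in CD44KO(HFD), a difference of -2.06. Its dimmer probe gave -2.37, with WT replicate 4 again the lowest WT sample at -2.31.

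The transcription factors differed from each other. Bnc1 was at -2.6, -2.01, -2.21, -5.02 and -2.59 in WT(HFD) fat and at -6.68, -7.86, -5, -5.15 and -3.53 in CD44KO(HFD) fat. It was well above background in 5 of 5 WT samples and in 3 of 5 knockout samples, and the mean difference of -2.76 therefore includes 2 knockout values at background. It was -1.69 with normexp background correction and -1.23 with array weights. Wt1, averaged over 10 spots of its probe per array, was at -1.53, -1.02, -0.8, -1.86 and -1.55 in WT(HFD) and at -2.34, -1.58, -1.89, -1.73 and -1.66 in CD44KO(HFD). Its means of -1.35 ± 0.43 and -1.84 ± 0.3 (SD, n = 5 each) differed by -0.49, and 2 of the 5 knockout samples lay below every WT sample. Wt1, the classical marker of the set, had the narrowest difference.

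The keratins are given in pairs. Krt7 was at -0.1, 0.33, 0.44, -1.84 and -0.05 in WT(HFD) fat and at -2.52, -2.59, -2.26, -2.64 and -1.16 in CD44KO(HFD) fat, a difference of -1.99. The dimmer Krt7 probe gave -2.61 with all samples and -1.87 without WT replicate 1, where it read 0.01 against -5.22 to -2.83 in the other WT samples. Krt19 was at 0.03, -0.25, 0.43, -2.47 and 0.51 in WT(HFD) and at -3.31, -3.84, -2.39, -2.91 and -1.64 in the knockout, a difference of -2.47. In both genes WT replicate 4 sat among the knockout samples.

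Krt8 and Krt18 had another order of mice. Krt8 was at -0.55, -0.04, 0.35, -1.11 and 2.33 in WT(HFD) fat and at -1.85, -2.85, -1.11, -1.82 and -1.23 in CD44KO(HFD) fat, a difference of -1.97 (-1.98 by its second probe). By its brightest probe the groups met without overlapping, WT replicate 4 lying above CD44KO replicate 3 by less than the rounding. By its second probe they overlapped, with CD44KO replicate 3 at -0.93 and WT replicate 4 at -1.19. Krt18 was at 0.57, 0.95, 1.04, -0.33 and 2.63 in WT(HFD) and at -1.2, -1.62, 0.23, -1.03 and -0.32 in the knockout, a difference of -1.76. WT replicate 5 was the highest WT sample for both and also for Krt19, and it was not the highest for Krt7. By the brightest probes, Krt8 was the 1 gene of the 10 whose groups did not overlap, and this did not hold for its second probe. Of all probes tested, 2.14% had groups without overlap and a lower CD44KO(HFD) level.

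**Figure D1:**
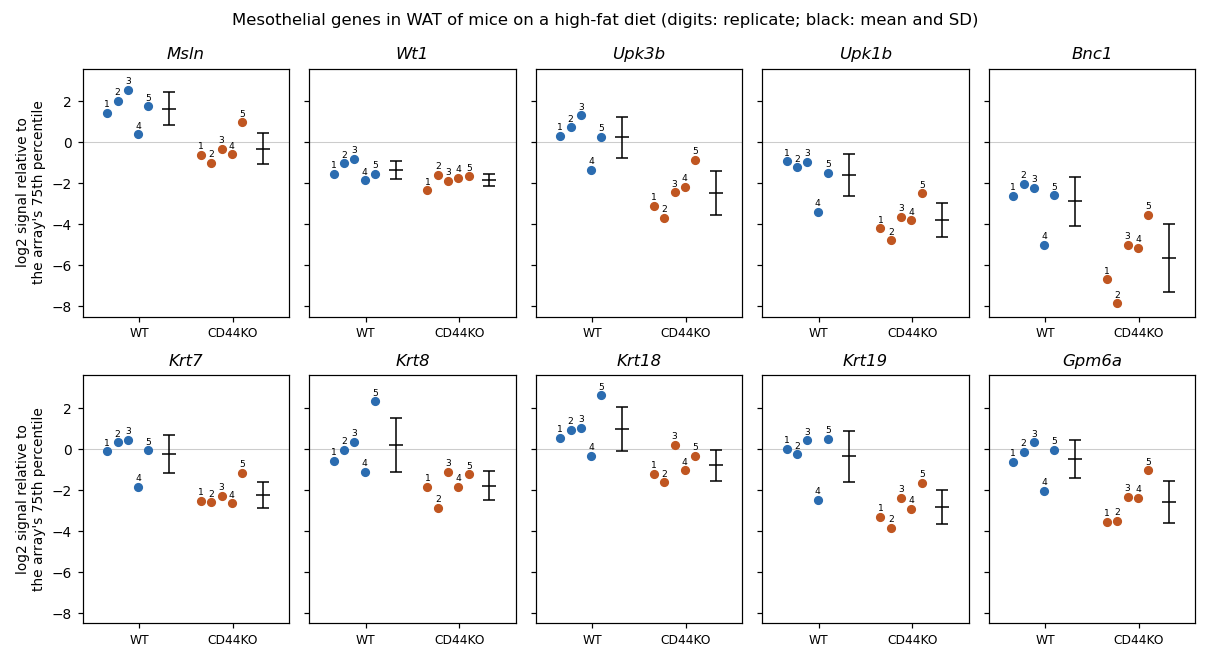
Log2 signal of each of the 10 mesothelial genes in WAT, relative to the 75th percentile of the array, for 5 WT(HFD) and 5 CD44KO(HFD) samples (coloured points, with the replicate number above each), and the mean with its SD (black). WT replicate 4 is the lowest WT sample in all 10 panels, and CD44KO replicate 5 is the highest knockout sample in 7.

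The same mice were high or low for most of the genes. WT replicate 4 was the lowest WT sample for 10 of the 10 genes, and CD44KO replicate 5 was the highest knockout sample for 7. CD44KO replicate 5 stood above WT replicate 4 for 9 of the 10, and with this pair set aside the remaining samples of both groups did not overlap for any of the 10. For Wt1 the nearest samples were then at -1.55 (WT replicate 5) and -1.58 (CD44KO replicate 2). The pair was picked from the values themselves, so nothing is read from this. The share of all probes without overlap after the same step was not computed. CD44KO replicate 2 was the lowest knockout sample for 7 genes. WT replicate 3 was the highest WT sample for 5 genes and WT replicate 5 for 3, Krt8, Krt18 and Krt19. By the mean log2 level over the 10 genes, the WT samples stood at -0.4, -0.06, 0.25, -1.9 and 0.18 in replicates 1 to 5, and the knockout samples at -2.93, -3.33, -2.12, -2.42 and -1.29. CD44KO replicate 5 was therefore above WT replicate 4 and below the other 4 WT samples.

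Agreement between genes was measured on the deviation of each sample from its genotype mean, so that the difference between genotypes did not enter. Over the 45 pairs of genes and the 10 WAT arrays, Pearson's r had a median of 0.793 and ran from 0.072 to 0.965, with 22 pairs above 0.8 and 0 below 0. Spearman's rho had a median of 0.782 and ran from 0.115 to 0.964. Without the array of WT replicate 1, the median r was 0.83. The points share arrays and scaling, and these values are descriptions. Upk1b and Gpm6a had a median r of 0.911 with the other 9 genes, Upk3b of 0.897, Krt19 of 0.894, Krt7 of 0.891, Msln of 0.883 and Bnc1 of 0.875. These 7 genes formed a close group, and the remaining 3 stood apart from it. Krt8 and Krt18 had a median r of 0.537 and 0.586 with the others and an r of 0.961 with each other. Of the 7, Krt19 came closest to them, with r of 0.734 and 0.793. Wt1 had a median r of 0.51, at most 0.652, and its lowest value was with Krt8.

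**Figure D2:**
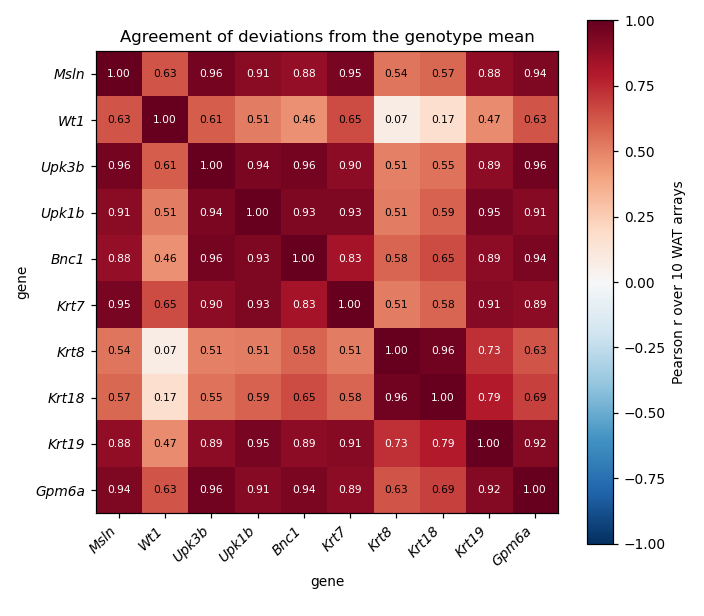
Pearson's r between each pair of the 10 genes (both axes) over the deviations of 10 WAT arrays from their genotype means, on a colour scale from -1 to 1. The pair Krt8 and Krt18 reaches 0.961 and is paler against the rest, and Wt1 is pale throughout, its lowest value being 0.072.

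The slide on which a sample was read moved with some of these values. The WAT samples were on 3 slides, each scanned once, of which 1 held only knockout samples. On the slide with WT replicates 1 and 4 and CD44KO replicates 2 and 5, the mean was lower in the knockout for 9 of the 10 genes, with a median difference of -1.15, from -1.88 for Bnc1 to 0.07 for Wt1. On the slide with WT replicates 2, 3 and 5 and CD44KO replicate 3, it was lower for 10 of the 10, with a median of -2.43, from -3.21 for Upk3b to -0.76 for Wt1. The sign was the same on both slides except for Wt1 on the first, while the size differed between them. With the slide as a block over all WAT samples, the median difference of the 10 genes was -1.58, with -1.18 for Krt18 and -0.28 for Wt1. All 10 kept the lower mean in the knockout. That direction chose the genes on these same samples, so nothing is read from the signs and counts by slide. The share of all probes with a lower knockout mean on each slide was not computed.

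Other genes known from mesothelium were read from a list of 20, of which 17 had a probe and 15 passed the filter on low values in WAT. The mean was lower in CD44KO(HFD) for 13 of the 15, with a median log2 difference of -0.87, and 0 of the 15 passed the test. The genes named next were chosen after their values were seen. Lrrn4, a leucine-rich repeat membrane protein, had a difference of -2.54, Dmkn (dermokine) of -2.21, the protease inhibitor Slpi of -1.79, Nkain4 of -1.3 and Pdpn (podoplanin, a mucin-type surface protein) of -0.87. Pdpn and Dmkn were the 2 of the 15 whose groups did not overlap, and yet they followed the mean of the 10 genes from mouse to mouse less closely than Lrrn4, with r values of 0.178 and 0.454. The difference was 0.12 for Aldh1a2, the enzyme that makes retinoic acid, 0.1 for Cldn15 (a tight junction claudin) and -0.09 for Cd200. These 3 also departed from the order of mice, with r values of -0.28, -0.383 and 0.269 against the mean of the 10 genes, where Lrrn4 had 0.947, Tmem151a 0.931, Rspo1 (an agonist of Wnt signalling) 0.925 and Slpi 0.898. In all, 5 of the 15 had an r above 0.8 and 8 an r below 0.5. These counts depended on the array of WT replicate 1. Without it, r went from 0.547 to 0.894 for Pkhd1l1 and from 0.798 to 0.811 for Nkain4. It went from 0.454 to 0.557 for Dmkn and from 0.437 to 0.507 for Efemp1. Pkhd1l1 had the widest difference of the 15, -2.56, with 1 of 5 knockout samples well above background.

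Relatives of the 10 genes by family were mostly dim in fat. All 14 had a probe and 9 passed the filter in WAT, with a median difference of -0.36 and 0 passing the test. Upk2, Upk3a, Krt6a, Krt15 and Mslnl did not pass the filter, so that of the uroplakins Upk3b, Upk1b and Upk1a were measured in fat. Gpm6b, at 1.8 ± 0.27 in WT(HFD) and 1.69 ± 0.24 in CD44KO(HFD) fat (SD, n = 5 each), differed by -0.12, where Gpm6a differed by -2.06. Bnc2 differed by -0.57, Krt14 by -1.2 and Krt17 by 0.08. These did not pass the test in either tissue and are exceptions to the rule by which genes were named. Krt20, a type I keratin of gut and urothelium, differed by -2.31 in fat. In liver 8 of the relatives were tested, of which 2 fell, 1 rose and 5 did not pass. Krt20 fell by 2.35 (limma, adjusted p = 0.0326), Gpm6b fell by 0.64 (adjusted p = 0.0448), and Krt23, a type I keratin that differed by 0.28 in fat, rose by 1.23 (adjusted p = 0.0355). Krt20 was well above background in 5 of 5 WT(HFD) and 1 of 5 CD44KO(HFD) livers, so the size of its fall is limited by background.

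Of the 19032 other symbols that passed the filter in WAT, the 10 whose deviations followed the mean of the 10 mesothelial genes most closely over the 10 arrays had r between 0.925 and 0.961. They were App, Mybpc2, Cobl, Lrrn4, 1110008I14Rik, Crym, Lgals2, Tmem151a, Fras1 and Scn3b. Lrrn4 and Tmem151a were also on the list of other mesothelial genes. App, the amyloid precursor protein, had r = 0.961 at 1 probe and at most 0.376 at its 2 other probes, and Scn3b had 0.925 at 1 probe and 0.44 at another, so both rest on a single probe. Crym (a thyroid hormone binding protein, r = 0.944) was at -2.23 in WT(HFD) and -4.49 in CD44KO(HFD) fat, and Cobl (an actin nucleator, r = 0.948) at -2.21 and -4.22. Fras1, an extracellular matrix protein of the basement membrane, was dim, at -5.77 and -7.71. Without the array of WT replicate 1, 7 of the 10 symbols stayed among the 10 closest.

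Genes of other cell types moved with some of the mice. The T cell genes (6 of 6 with a probe) had a lower mean in CD44KO(HFD) fat in 6 of 6, with a median difference of -1.51 and 0 past the test, and their summed log2 level ran from -0.59 to 2.25 in WT(HFD) and from -1.43 to -0.22 in CD44KO(HFD). It was highest in WT replicates 5 and 1, and at -0.59 in WT replicate 3, where the mesothelial genes were at their highest mean. Of the 8 epithelial genes, 3 passed the filter. The brightest were the claudins Cldn3 and Cldn7, which differed by -1.24 and -1.61. The summed level of the 8 was 2.08 in WT replicate 1 and 1.32 in WT replicate 5, and between -2.84 and -1.95 in the other 8 samples. WT replicate 1 is the array whose dim probes read high. The mean level of the family relatives was raised there too, at -1.57 against -5.25 to -4.84 in the other WT samples. WT replicate 5 had 7 of the 8 well above background, against 3 in WT replicates 2, 3 and 4, and it was the sample in which Krt8 and Krt18 were raised. The part of these cells in the values of Krt8, Krt18 and Krt19 was not tested. The difference without that sample was -1.43 for Krt8, -1.34 for Krt18 and -2.25 for Krt19.

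Epididymal and pancreatic genes, which a fat pad can carry from its neighbours, were near background. Of 13 epididymal genes, 2 to 4 were well above background in WT replicates 2 to 5 and 12 in WT replicate 1, and 3 to 8 in the knockout. Of 7 pancreatic genes, 2 to 5 were in WT replicates 2 to 5, 7 in WT replicate 1 and 2 to 6 in the knockout. The brightest epididymal genes, Lcn9 and Rnase10, differed by -0.24 and -0.18, and the brightest pancreatic ones, Ctrb1 and Cel, by 0.09 and -0.67. Adipocyte genes were bright in all 10 samples (8 of 8 well above background), with a higher mean in CD44KO(HFD) for 8 of 8 and a median difference of 0.55. The mean was also higher for 5 of 5 endothelial genes, with a median of 0.65, the brightest being Cdh5 (0.88) and Kdr (0.65), and for 6 of 6 hepatocyte genes, with a median of 0.84. Fibroblast genes had a median difference of -0.07 and macrophage genes of -0.33. Among the fibroblast genes Pi16, named after its value was seen, had a log2 difference of -1.67 without overlap of the groups and did not pass the test (limma, adjusted p = 0.112). The part of these cells in the values of the 10 genes was not tested.

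**Figure D3:**
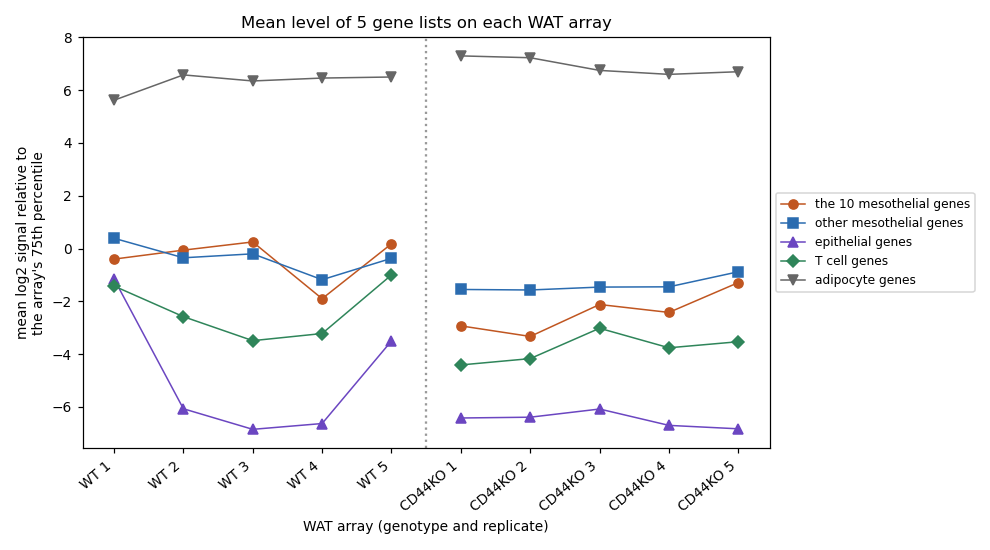
Mean log2 signal, relative to the array's 75th percentile, of 5 gene lists (coloured lines) on each of the 10 WAT arrays, WT(HFD) on the left and CD44KO(HFD) on the right. The mesothelial genes dip in WT replicate 4 (-1.9), while the epithelial genes rise in WT replicates 1 and 5 and the adipocyte genes stay between 5.62 and 7.3. WT replicate 1 is the array whose dim probes read high.

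Liver gave a comparison on arrays outside the fat pattern that chose the genes, though earlier results of these data were known by then. There, 7 of the 10 genes passed the filter on low values, with a median difference of -0.26 against 0.08 for all 24689 probes tested. By limma, 5.76% of the probes fell in CD44KO(HFD) liver and 8% rose, 13.8% in all. Of the probes that passed, 58.1% were higher in CD44KO(HFD), and 34.3% with normexp background correction. Of the 7 genes, 2 fell, 0 rose and 5 did not pass, and the 2 were the keratin pair of hepatocytes. Whether the effect of the genotype differed between fat and liver was not tested.

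Krt8 in liver was at 7.65, 7.66, 7.48, 7.09 and 7.5 in WT(HFD) and at 6.75, 6.34, 7.17, 6.59 and 6.53 in CD44KO(HFD). The groups overlapped in CD44KO replicate 3 and WT replicate 4. The log2 difference was -0.8 with a standard error of 0.16 (limma, adjusted p = 0.0177), and -0.69 by the second probe (adjusted p = 0.022). The call was lost without WT replicate 2, at an adjusted p of 0.0504. Krt18 was at 7.85, 7.85, 7.71, 7.35 and 7.61 in WT(HFD) and at 7.12, 6.96, 7.55, 7.04 and 7.19 in CD44KO(HFD), and fell by 0.5 with a standard error of 0.13 (adjusted p = 0.0367). Leaving out 1 array at a time ended this call in 8 of 10 cases, all but WT replicate 4 and CD44KO replicate 3, with adjusted p values between 0.0642 and 0.0911. Within the 3 liver slides the difference was -0.91, -0.73 and -0.74 for Krt8 and -0.6, -0.36 and -0.59 for Krt18.

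The other liver values did not pass. Krt19 differed by -0.48 (95% interval -0.95 to -0.02, adjusted p = 0.141 by limma) and Krt7 by -0.19 (-0.67 to 0.29). Gpm6a differed by -0.26 (-0.96 to 0.44). Msln had a higher mean in CD44KO(HFD) liver, by 0.62 (-1.06 to 2.3, adjusted p = 0.609), and so had Upk3b, by 0.76 (-0.81 to 2.32, adjusted p = 0.492). Both genes varied from liver to liver. Msln ran from -4.01 to -0.88 in WT(HFD) and from -2.85 to -0.26 in CD44KO(HFD). WT replicates 2 and 4 were the lowest for Msln, at -3.87 and -4.01, and for Upk3b, at -7.05 and -6.8. Over the 10 livers the deviations of Msln and Upk3b from their genotype means had r = 0.957, the highest of the 45 pairs, whose median in liver was 0.215 with the genes near background included. Upk3b was well above background in 2 of 5 WT(HFD) and 3 of 5 CD44KO(HFD) livers. Wt1, Upk1b and Bnc1 did not pass the filter in liver, Wt1 being well above background in 1 of 5 WT(HFD) samples and in 0 of 5 CD44KO(HFD) samples, and the others in 0 of 10.

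Of the other mesothelial genes, 12 passed the filter in liver, 1 fell, 1 rose and 10 did not pass. Crip1, a LIM domain protein of many cell types, fell by 0.61 (limma, adjusted p = 0.0286). Slc39a8, a zinc and manganese transporter, rose by 0.41 (adjusted p = 0.0173). In fat the same genes had differences of -0.41 and -0.54.

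Genes of other cell types also passed in liver. Of 5 T cell genes tested 4 fell, with log2 differences of -3.16 for the coreceptor Cd8a (limma, adjusted p = 0.003), -1.04 for the receptor chain Cd3d (0.0121), -0.84 for the chain Cd3g (0.0289) and -0.75 for the adaptor Lat (0.0182). Cd8a was well above background in 5 of 5 WT(HFD) and 0 of 5 CD44KO(HFD) livers, so the size of its difference is set by background. Of 9 fibroblast genes 5 fell, with differences of -2.38 for the collagen Col1a1 (limma, adjusted p = 0.0254), -1.67 for Col1a2 (0.0256), -1.6 for Col3a1 (0.0226), and, for the matrix proteins Dpt and Dcn, -1.47 (0.0149) and -0.45 (0.0234). Of 4 cholangiocyte genes 2 fell, Spp1 (osteopontin) with -1.54 (limma, adjusted p = 0.03) and Sox9 with -0.7 (0.0496). In the macrophage list Itgax fell, with -2.01 (limma, adjusted p = 0.0284, 1 of 7 tested), and in the adipocyte list Cidec, a lipid droplet protein, with -2.12 (0.0486, 1 of 5). In the hepatocyte list Cyp2e1 rose, with 0.62 (limma, adjusted p = 0.0488, 1 of 6). The 5 epithelial, 4 epididymal, 4 pancreatic and 5 endothelial genes tested in liver did not pass. The part of these cells in the liver values of Krt8 and Krt18 was not tested.

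**Figure D4:**
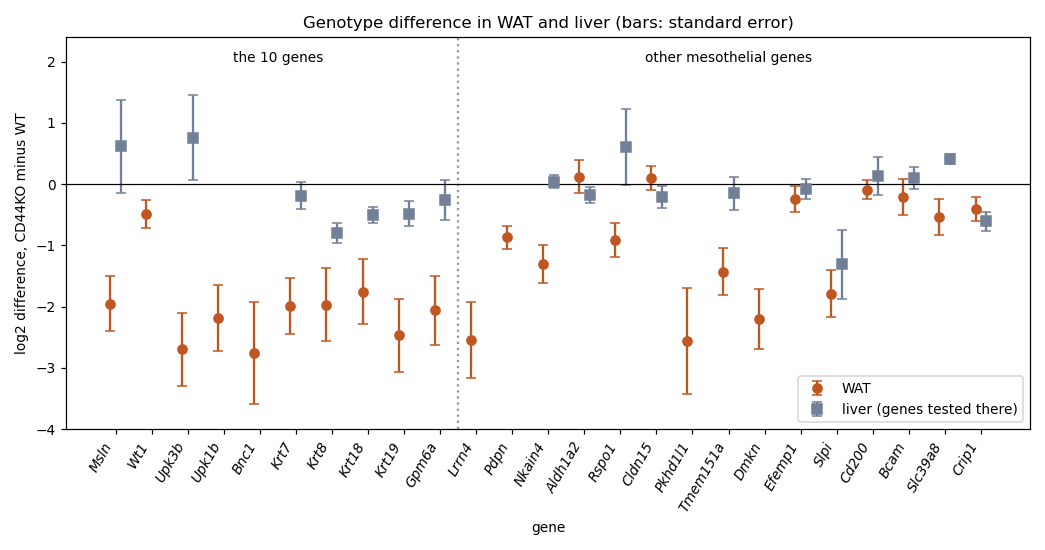
Log2 difference between CD44KO(HFD) and WT(HFD), with its standard error from limma, in WAT (circles) and in liver where the gene was tested (squares), for the 10 genes and for 15 other mesothelial genes. The WAT values of the 10 genes lie between -2.76 and -0.49, and the liver values of the 7 tested there between -0.8 and 0.76.

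The levels in WT(HFD) mice were set against liver to see which of the genes marked the fat sample. The contrast was fitted by limma on all 20 arrays, and 70.5% of the 28989 probes passed, 34.5% with the higher level in fat and 36% in liver. All 10 genes passed, 8 with the higher level in WAT and 2, Krt8 and Krt18, in liver. The WT(HFD) fat values had entered the choice of the genes, so the p values below stand as descriptions. Wt1, Upk1b and Bnc1 passed the filter through the fat groups alone, so nothing is read from their passing and no p value is given for them. Liver and fat arrays were on different slides and scanners, so tissue and slide cannot be told apart.

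Msln was 15.2-fold higher in WAT (limma, adjusted p = 3.39e-05), at 1.64 ± 0.81 against -2.28 ± 1.53 (SD, n = 5 each), and Gpm6a 7.58-fold (adjusted p = 2.53e-05). Upk1b and Bnc1 were not well above background in any WT(HFD) liver, with measured means of -6.78 and -6.83. Their WAT level was at least 9.97-fold and at least 4.08-fold higher than the lowest signals well above background there. Upk3b was measured above background in 2 of 5 WT(HFD) livers, and its log2 difference was 5.56 (limma, adjusted p = 8.24e-07), or 4.66 with each liver value set no lower than the lowest signal well above background. Wt1 was above background in 1 of the 5, with a log2 difference of 3.34, or 3.19 with that floor. With normexp background correction the log2 differences were 3.12 for Upk3b, 1.49 for Wt1, 1.71 for Upk1b, 0.87 for Bnc1, 3.28 for Msln and 1.95 for Gpm6a, so the size depended on how background was treated. These surface proteins and transcription factors all had the higher mean in the fat samples, on values that the choice of genes had used in part.

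Among the keratins, Krt7 was 2.1-fold (adjusted p = 0.0157 by limma) and Krt19 2.34-fold (adjusted p = 0.0275) higher in WAT, and both were well above background in 5 of 5 livers. Krt19 lost its call without WT(HFD) liver replicate 3 (adjusted p = 0.0714), without WAT replicate 3 (0.0746) and without WAT replicate 5 (0.0774), and with the WT(HFD) arrays fitted alone (0.0698). Krt8 was 156-fold and Krt18 104-fold higher in liver (adjusted p = 8.32e-11 and 4.26e-11), at 7.48 ± 0.23 and 7.67 ± 0.21 (SD, n = 5 each). Hepatocyte genes in fat had a summed log2 level between 2.1 and 5.25 in WT(HFD) and between 3.55 and 5.65 in CD44KO(HFD), against 11.03 to 11.6 in liver.

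**Figure D5:**
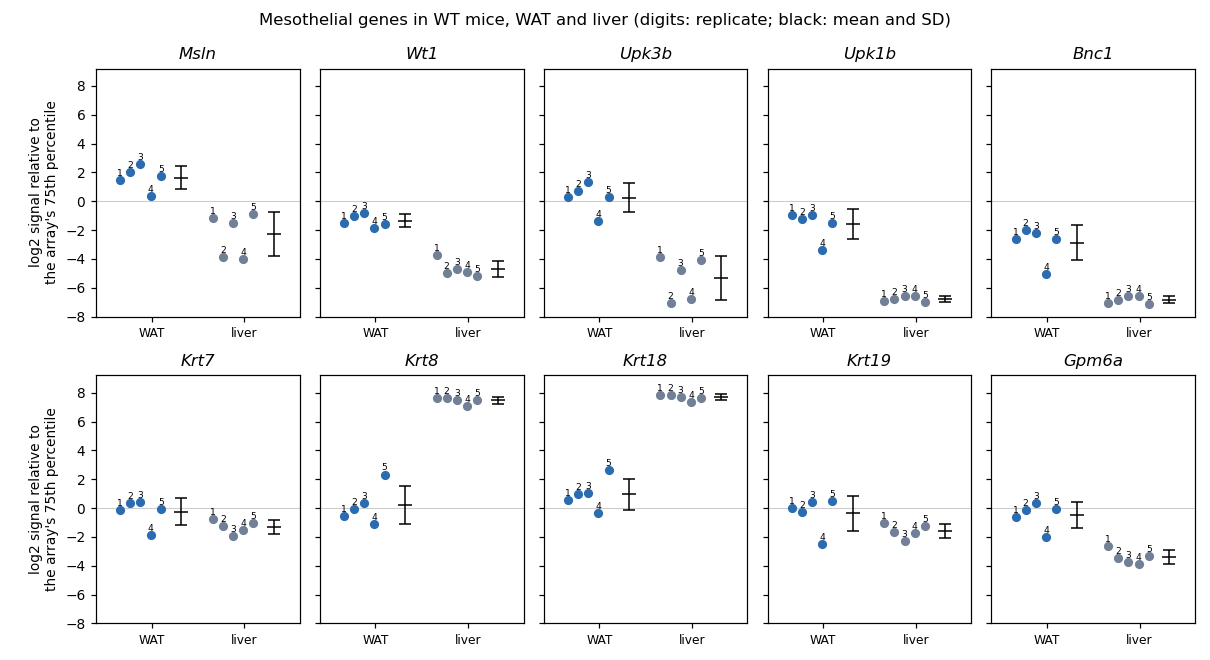
Log2 signal of each of the 10 genes relative to the 75th percentile of the array, in WAT and liver of 5 WT(HFD) mice (points, with the replicate number), and the mean with its SD (black). Krt8 and Krt18 lie above 7 in liver, and the other 8 genes have the higher mean in WAT.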

How the data were processed

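RNA of liver and WAT from 5 WT(HFD) and 5 CD44KO(HFD) mice, as the methods count them, was read on Agilent 1-color arrays. The authors deposited linear intensities, namely processed spot signals from Agilent Feature Extraction 9.5 (per the labels), not scaled between arrays. The series table held the same values. After outlier spots were dropped, log2 was taken, the 75th percentile over 43379 non-control spots was subtracted, and spots were averaged by probe. Probes took the files' symbols, or the RefSeq table's by accession (22951 of 41174). The filter kept probes that exceeded background in 3 or more of the 5 samples of some group. Tests used limma 3.58.1 (R 4.3.3), Benjamini-Hochberg adjustment across all kept probes and a threshold of 0.05. Fits were checked on simulated data. The number of arrays limits the precision.

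The 10 genes and all marker lists were chosen with earlier results of these data known. All 10 are named. Of other lists, genes past the test in either tissue are named, at most 6 a list, otherwise the 2 brightest in WT fat, and exceptions are marked. The closest symbols are the 10 with the highest r to the mean of the 10 genes. Alternatives were normexp (offset 50), quantile and detected-median scaling, other filters, a fit of all 20 arrays, slide and replicate blocks, array weights, all probes of a gene, and leaving out each array. Where no sample of a group exceeded background, a fold is a lower bound.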

Additional observations from a re-analysis of the deposited data

Results flagged for a closer look

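In 40 groups of 5 samples (10 genes in 4 groups), 5 held a sample far from the others by Dixon's ratio of the gap to the range, above 0.71. For unselected groups chance gives about 1 in 20, and since these genes were chosen on their fat values, nothing is read from that rate. WT(HFD) fat replicate 4 was that sample for Upk1b (-3.4, the next WT sample being at -1.48), Bnc1 (-5.02 against -2.6), Krt7 (-1.84 against -0.1) and Krt19 (-2.47 against -0.25). CD44KO(HFD) fat replicate 5 was that sample for Krt7, at -1.16 against -2.26. These genes move together, so the 5 are not separate events. Leaving out WT replicate 4 took the median difference of the 10 genes to the lowest of the values without 1 array, -2.42. The depth of both arrays was ordinary, with 63.9% and 66.4% of the spots well above background.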

How the results depend on the processing

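The 10 genes had the lower mean in CD44KO(HFD) fat in 100 of 100 values from other settings and in 100 of 100 from leaving out 1 array. That direction chose the genes, so nothing is read from these counts. Other filters, the fit of all 20 arrays and the replicate block also leave each difference as it was. The number of probes called in WAT, 11, became 39 with normexp, 3 without a filter, 1733 with all 20 arrays, 4 with the slide block, 2776 with array weights and 3 with the replicate block, and 3 to 19 without 1 array. Of the 10 genes 0 were called there, but 1 with normexp and 8 with all 20 arrays, and 0 without any 1 array, where their median difference was -2.42 to -1.87. Quantile scaling moved the median of all WAT probes from -0.07 to 0.1 and that of the 10 genes from -2.03 to -1.89. With it the Wt1 difference shrank from -0.49 to -0.08. Array weights gave -1.58 for Upk3b, -1.17 for Upk1b, -1.23 for Bnc1 and -1 for Gpm6a. The median r between genes, 0.793, was 0.74 with normexp, 0.662 with quantile scaling, and 0.693 to 0.866 without 1 array.

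In liver the 3399 calls became 647 with normexp, 1033 without a filter, 715 with all 20 arrays and 1326 with the replicate block, and 859 to 4662 without 1 array. The 2 genes called there became 1 with quantile scaling, 1 without a filter, 0 with all 20 arrays and 1 with the replicate block, and 0 to 2 without 1 array, where the median difference was -0.46 to -0.08. Gpm6a in liver was at 0.11 with normexp. Krt19 in liver passed with array weights (adjusted p = 0.0491) and without WT replicate 3 (0.0417, limma). The causes were not tested. Between tissues, all 10 genes kept their direction, 19626 to 22174 probes were called without 1 array, and 9 to 10 of the genes.

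Same-numbered samples did not deviate together in WAT (r from -0.212 to 0.0916, 5 pairs) or in all liver pairs (-0.0381 to 0.417, 3 of 5 above 0.1), so the numbers were not taken to pair mice. Across tissues r was -0.0412 to 0.149 in CD44KO and -0.21 to 0.141 in WT. Under the replicate block the Krt18 call in liver was lost (adjusted p = 0.0679, limma). Genes near background, such as Bnc1 in CD44KO(HFD) fat, have values that signal over background limits.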
